A study of Homo sapiens with 6 samples.

Results

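The genes described are 10 components of death receptor signalling, chosen by symbol. They are the death ligand gene TNFSF10 (TRAIL), its receptors TNFRSF10A, TNFRSF10B, TNFRSF10C and TNFRSF10D, the receptor gene FAS, the initiator caspase gene CASP8, its regulator CFLAR, the inhibitor of apoptosis XIAP, and XAF1, which encodes a XIAP-binding protein. All 10 are among the 56303 gene rows of the count table. RNA was sequenced from A549, an established line of human lung adenocarcinoma cells. One group of 3 libraries came from cells transfected with an siRNA against HNRNPD (label "HNRNPD si") and the other 3 from cells transfected with a negative control siRNA (label "HNRNPD NC"). HNRNPD encodes AUF1, an RNA-binding protein that recognises AU-rich mRNA sequences. Neither the siRNA sequence nor the time after transfection is given in the sources used here, and nothing says that the replicates were separate cultures, so p-values cover only differences from library to library, possibly of technical origin.

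TRAIL and the FAS ligand are trimeric proteins of the tumour necrosis factor family that bind receptors on the cell surface. TNFRSF10A (DR4), TNFRSF10B (DR5) and FAS carry an intracellular death domain, which recruits the adaptor FADD and through it procaspase-8. TNFRSF10C (DcR1) lacks a death domain and TNFRSF10D (DcR2) has a truncated one, so both are known as decoy receptors. CFLAR (c-FLIP) resembles caspase-8 without its catalytic activity and competes for places in the complex. Active caspase-8 cleaves executioner caspases and BID, and XIAP inhibits the executioner caspases and caspase-9. TNFSF10 and XAF1 are known interferon-inducible genes, and FAS and TNFRSF10B are known targets of p53.

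The libraries held 37151094 to 40462117 counts after HNRNPD siRNA and 42607632 to 43005090 counts with control siRNA. HNRNPD itself was at 163 to 177 CPM (counts scaled to 1000000 per library) after HNRNPD siRNA, against 942 to 965 CPM with control siRNA (log2 fold change -2.49, SE 0.06, edgeR adjusted p = 1.38e-15), which fits the labels in all 6 libraries. All 6 epithelial markers examined were present, with summed levels of 3619 to 3667 CPM after HNRNPD siRNA and 5647 to 6024 CPM with control siRNA. Within this sum KRT8, KRT18 and KRT7 fell, EPCAM rose, and CDH1 and CEACAM6 were not called. The 8 leukocyte markers summed to 2.25 to 2.96 CPM and 2.63 to 3.72 CPM in the same groups, with PTPRC, CD3E, MS4A1 and TYROBP at or near 0 in each library. Of the other leukocyte markers, NKG7 was called higher (mean 1.65 CPM after HNRNPD siRNA, 0.644 CPM with control siRNA) and CD14 lower (0.514 and 2.07 CPM). The 7 markers of endothelium, fibroblasts and red cells summed to at most 0.835 CPM in any library. In total RNA of a culture, a change in the share of cells that express a gene cannot be told apart from a change in RNA per cell.

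Of the 10 genes, 7 were called higher after HNRNPD siRNA, 1 was called lower (TNFRSF10D) and 2 were not called (TNFRSF10C and XIAP). A call means an adjusted p under 0.05 in edgeR over the 20465 genes tested, of which 28.4% were called higher and 27.8% lower. Among the 10, TNFSF10, FAS, CASP8 and XAF1 were higher by at least 2-fold and TNFRSF10D lower by at least 2-fold, against 10.2% and 6.09% of all genes tested. In 8 of the 10 the libraries of the 2 groups did not overlap, as in 62.6% of all genes tested. The median log2 fold change was 0.38 for the 10 genes and 0.01 for all genes tested. All 10 passed the filter on low counts, and XAF1 had only 10 to 18 counts in the control libraries.

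**Figure D1:**
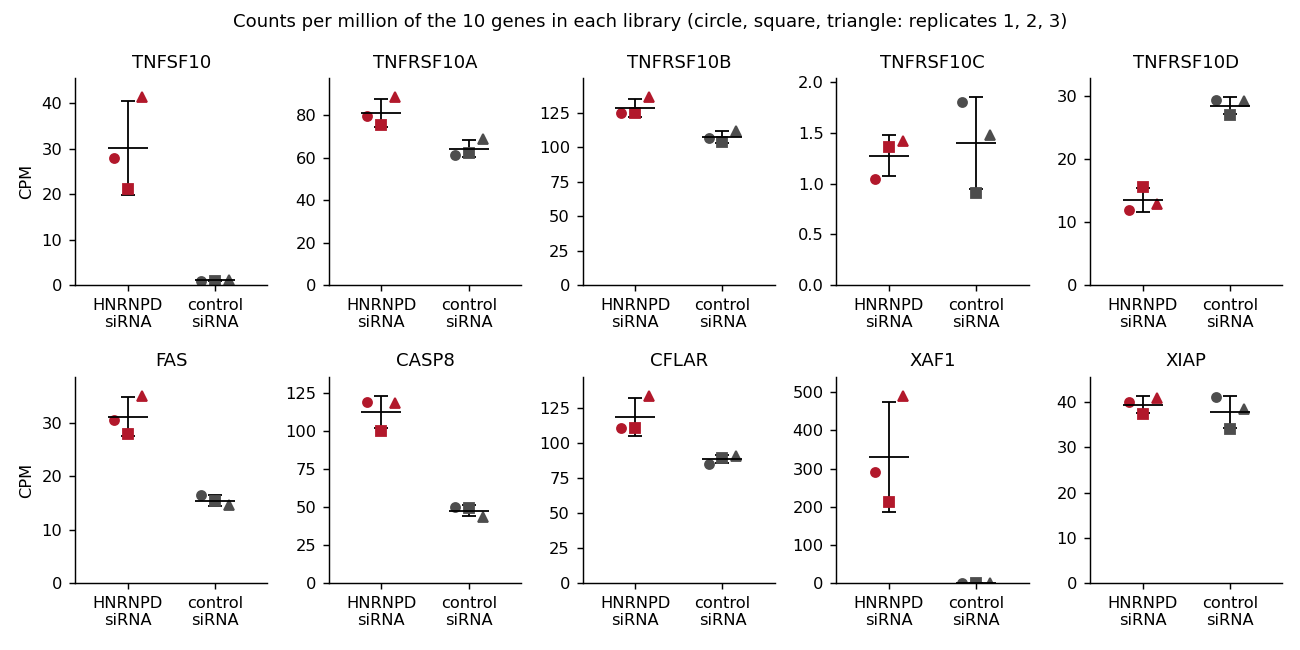
CPM (vertical axes, each from 0) of the 10 genes in the 3 HNRNPD siRNA libraries (red) and the 3 control siRNA libraries (grey), with the mean and SD in black. TNFSF10 and XAF1 are near 0 in the control libraries, TNFRSF10D is the gene that is lower after HNRNPD siRNA, and TNFRSF10C and XIAP overlap between the groups.

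TNFSF10, the gene of the ligand TRAIL, was at 28.0, 21.2 and 41.4 CPM in HNRNPD siRNA replicates 1 to 3, against 0.986, 0.980 and 1.19 CPM in control replicates 1 to 3. The lowest HNRNPD siRNA library was thus far above every control library. The fitted log2 fold change was 4.84 (SE 0.37, 95% interval 3.89 to 5.79, edgeR adjusted p = 0.000196). TNFSF10 is on the minus strand of chromosome 3, bases 172505508 to 172523507 (GRCh38), and no other gene row shares its exonic bases. Larger log2 fold changes were fitted for 58 of the genes tested. The FAS ligand gene FASLG and the gene TNF were at most 0.141 CPM in any library and did not pass the filter.

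XAF1 had 10565, 8933 and 19670 counts in HNRNPD siRNA replicates 1 to 3, against 12, 18 and 10 counts in control replicates 1 to 3. That corresponds to 290, 213 and 491 CPM after HNRNPD siRNA and 0.282, 0.420 and 0.238 CPM with control siRNA. All HNRNPD siRNA libraries were high, with replicate 3 at 2.31 times replicate 2. The log2 fold change was 10.03 (SE 0.64, 95% interval 8.31 to 11.75, edgeR adjusted p = 0.000228), and 1 tested gene had a larger one. XAF1 occupies chromosome 17 from 6755447 to 6775647 on the plus strand (GRCh38). Of its exonic bases, 38.3% are shared with the antisense row RP11-609D21.3, which had 6911, 5691 and 12802 counts after HNRNPD siRNA and 10, 10 and 8 with control siRNA. Without a stated strand setting, counts over the shared bases cannot be divided between the genes. When every antisense count was subtracted, XAF1 kept 3654, 3242 and 6868 counts after HNRNPD siRNA and 2, 8 and 2 with control siRNA.

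XIAP, the inhibitor to which XAF1 binds, was at 39.9, 37.3 and 40.8 CPM after HNRNPD siRNA and 41.0, 34.0 and 38.4 CPM with control siRNA. The groups overlapped, and the log2 fold change was 0.06 (SE 0.07, edgeR adjusted p = 0.536), with a 95% interval of -0.10 to 0.21. Within a library, the ratio of XIAP to XAF1 counts per kilobase of exon was 0.101, 0.128 and 0.0609 after HNRNPD siRNA, against 107, 59.4 and 118 with control siRNA. XIAP mRNA was therefore in excess over XAF1 mRNA in each control library and below it in each HNRNPD siRNA library. The difference in the log2 ratio was -9.94 (exact two-sided permutation p = 0.1, which is the smallest that 3 against 3 libraries can give).

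**Figure D2:**
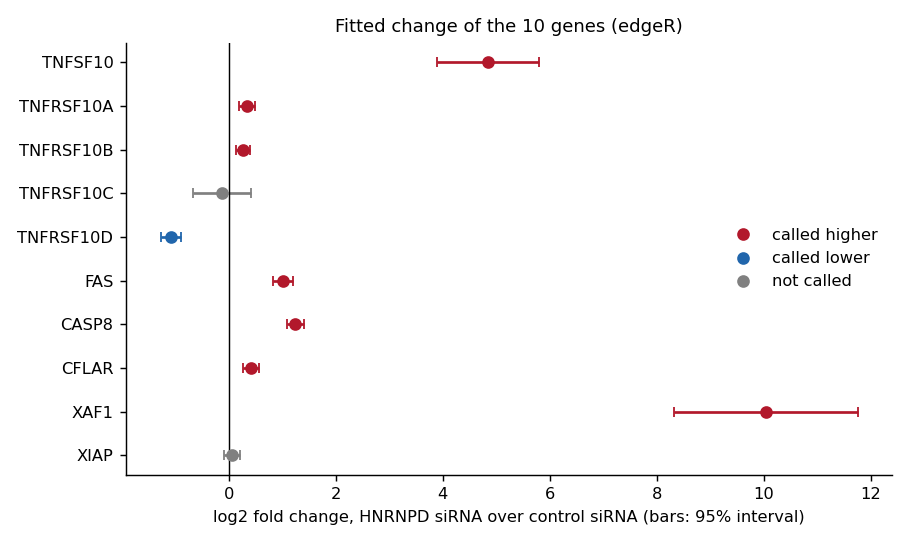
Fitted log2 fold changes of HNRNPD siRNA over control siRNA (horizontal axis) for the 10 genes, with 95% intervals from edgeR as bars. XAF1 (10.03) and TNFSF10 (4.84) stand far to the right, TNFRSF10D (-1.08) is the only called fall, and the intervals of TNFRSF10C and XIAP include 0.

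The promoter stretches of the rising genes TNFSF10, XAF1 and CASP8 are shown. All of them rose in every HNRNPD siRNA library, and the first pair are textbook interferon-inducible genes. FAS and CFLAR also rose in every such library, but their promoters, described below, are not printed. Each printed stretch runs from 250 bases before to 50 after a transcript start, 5′ to 3′ on the strand of the gene. The stretches come from RefSeq (GRCh38.p14). For XAF1 and CASP8 the promoter with the match nearest to its start is printed, a choice made after the matches were known. Capitals mark matches to AANNGAAA on either strand, the core bound by interferon regulatory factors.
TNFSF10, chr3:172523381-172523680, minus strand: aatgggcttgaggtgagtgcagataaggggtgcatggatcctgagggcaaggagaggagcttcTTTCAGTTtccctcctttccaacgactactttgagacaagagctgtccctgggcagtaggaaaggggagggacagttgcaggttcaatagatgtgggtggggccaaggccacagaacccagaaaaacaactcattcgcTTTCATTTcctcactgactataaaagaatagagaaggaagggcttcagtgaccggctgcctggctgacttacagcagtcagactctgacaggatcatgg
XAF1, chr17:6755796-6756095, plus strand: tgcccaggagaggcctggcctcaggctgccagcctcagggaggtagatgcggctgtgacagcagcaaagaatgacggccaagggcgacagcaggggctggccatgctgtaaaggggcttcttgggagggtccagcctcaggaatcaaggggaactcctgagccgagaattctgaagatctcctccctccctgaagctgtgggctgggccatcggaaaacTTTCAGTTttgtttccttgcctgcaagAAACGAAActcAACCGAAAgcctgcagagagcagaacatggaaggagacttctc
CASP8, chr2:201233213-201233512, plus strand: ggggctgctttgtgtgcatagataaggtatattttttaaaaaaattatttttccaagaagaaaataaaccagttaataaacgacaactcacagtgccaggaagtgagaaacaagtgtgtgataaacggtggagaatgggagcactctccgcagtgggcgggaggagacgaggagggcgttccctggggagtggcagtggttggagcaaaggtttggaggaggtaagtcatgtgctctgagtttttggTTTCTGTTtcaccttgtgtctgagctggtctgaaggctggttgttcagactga

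The 300-base promoter table matched 6 of the 10 genes, with 16 promoters in all. The stretch of TNFSF10 holds 2 matches to the core, that of XAF1 holds 3 clustered around the start, and that of CASP8 holds 1. The other promoter of XAF1 holds 1 match, and of the other 2 promoters of CASP8 1 holds a match and 1 does not. At least 1 match stands in 19.3% of 22199 promoters of protein-coding genes, and in at least 1 promoter of 23.8% of the genes. The longer repeat GAAANNGAAA, known as the core of the interferon-stimulated response element, overlaps the first motif and was found on the reverse strand in the TNFSF10 stretch, 187 bases before the start, and in the CASP8 stretch, 3 bases before the start. It stands in 3.17% of the promoters and in a promoter of 4.16% of the genes, and neither the remaining promoters of CASP8 nor those of XAF1 hold it. A match to TTCNNNGAA, the site of STAT dimers found in 6.79% of promoters and 8.98% of genes, lies 200 bases before the start in the CASP8 stretch. FAS had 1 core match in 1 of its 3 promoters and CFLAR had 2 in 1 of its 4, while the 3 promoters of XIAP held none of these letters.

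The 4 TRAIL receptor genes lie side by side within 205 kilobases of chromosome 8, from 23020133 to 23225126 (GRCh38), in the order TNFRSF10B, TNFRSF10C, TNFRSF10D and TNFRSF10A. They did not move together. The death receptor gene TNFRSF10A was at 79.4, 75.3 and 88.4 CPM after HNRNPD siRNA, against 61.3, 62.3 and 68.8 CPM with control siRNA. Its log2 fold change was 0.34 (SE 0.07, edgeR adjusted p = 0.000451), a small rise without overlap between the groups. TNFRSF10B, the DR5 gene, was at 125, 125 and 136 CPM in the HNRNPD siRNA libraries and 106, 104 and 112 CPM in the control libraries. It rose by 0.26 on the log2 scale (SE 0.06, edgeR adjusted p = 0.00121), again without overlap.

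The decoy receptor gene TNFRSF10D fell, to 11.9, 15.6 and 12.9 CPM in the HNRNPD siRNA libraries, against 29.4, 26.9 and 29.2 CPM in the control libraries. Every HNRNPD siRNA library was below every control library, and the log2 fold change was -1.08 (SE 0.09, 95% interval -1.27 to -0.89, edgeR adjusted p = 1.67e-08). TNFRSF10C, the other decoy gene, was sparse, with 38, 57 and 57 counts after HNRNPD siRNA and 77, 39 and 62 counts with control siRNA. These groups overlapped and no difference was detectable at this depth (log2 fold change -0.13, SE 0.26, edgeR adjusted p = 0.702). The 95% interval of -0.67 to 0.42 bounds its change.

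Per kilobase of exon, the decoy genes together stood at 0.0735, 0.0991 and 0.0743 of the 2 TRAIL death receptor genes in the HNRNPD siRNA libraries. In the control libraries this ratio was 0.217, 0.193 and 0.196. This combined ratio was lower in each HNRNPD siRNA library, by 1.31 on the log2 scale (exact two-sided permutation p = 0.1, the smallest possible). Of the decoys only TNFRSF10D was called lower, and TNFRSF10A and TNFRSF10B were called higher. Between the death receptors themselves, the ratio of TNFRSF10B to TNFRSF10A was 0.898, 0.951 and 0.881 after HNRNPD siRNA and 0.993, 0.952 and 0.931 with control siRNA. These values overlapped, and the log2 ratio differed by -0.08 (exact two-sided permutation p = 0.2). The SD of the log2 ratio was 0.06 after HNRNPD siRNA and 0.05 with control siRNA. No 50-base stretch of any TRAIL receptor transcript in GENCODE 29 occurs in a transcript of another of the 10 genes, so exact matches of that length do not mix the 4 receptors. With genes outside the 10, on either strand, TNFRSF10C shares 35.4% of its 50-base stretches and TNFRSF10A 12.4%. Of the TNFRSF10A exonic bases, 16.6% are shared with antisense rows.

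**Figure D3:**
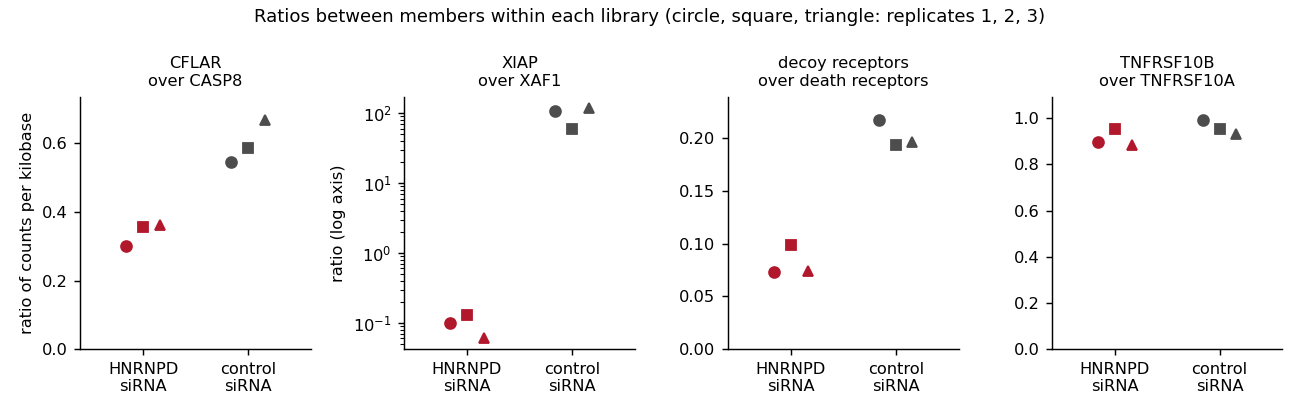
Ratios of counts per kilobase of exon between members within each library (vertical axes from 0, with a log axis for XIAP over XAF1), HNRNPD siRNA libraries in red and control siRNA libraries in grey. The ratios of CFLAR to CASP8, XIAP to XAF1 and decoy to death receptors are lower in every HNRNPD siRNA library, while TNFRSF10B over TNFRSF10A overlaps between the groups.

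FAS, the receptor of the FAS ligand, was at 30.5, 27.8 and 35.0 CPM after HNRNPD siRNA, against 16.5, 15.3 and 14.6 CPM with control siRNA. It rose by 1.01 on the log2 scale (SE 0.09, edgeR adjusted p = 2.01e-08), and each HNRNPD siRNA library was above each control library. FAS spans bases 88990582 to 89015785 of chromosome 10, plus strand (GRCh38), and shares 10.1% of its exonic bases with ACTA2 on the opposite strand. ACTA2, a smooth muscle actin gene, had 315, 313 and 311 counts after HNRNPD siRNA and 109, 132 and 135 with control siRNA, while FAS had 1110 to 1403 and 612 to 702 counts. The share of FAS counts that come from ACTA2 was not tested.

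CASP8, the initiator caspase gene, was at 119, 100 and 119 CPM after HNRNPD siRNA, against 50.3, 49.3 and 43.8 CPM with control siRNA. Every HNRNPD siRNA library was well above every control library. The log2 fold change was 1.24 (SE 0.08, 95% interval 1.08 to 1.40, edgeR adjusted p = 2.32e-10). Its exons are shared with no other gene row. CFLAR, which competes with caspase-8 at the receptor, was at 111, 111 and 134 CPM in the HNRNPD siRNA libraries and 85.3, 89.8 and 91.1 CPM in the control libraries. It rose by 0.42 (SE 0.07, edgeR adjusted p = 6.89e-05), with no overlap, and 12% of its exonic bases are shared with other rows.

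CFLAR, CASP10 and CASP8 lie in this order within 172 kilobases of chromosome 2, from 201116104 to 201287711 (GRCh38, plus strand). All were called higher, CASP10, a second initiator caspase, being at 6.84, 5.89 and 6.54 CPM after HNRNPD siRNA and 2.98, 2.99 and 3.70 CPM with control siRNA. The ratio of CFLAR to CASP8 counts per kilobase was 0.300, 0.356 and 0.363 after HNRNPD siRNA, against 0.545, 0.586 and 0.669 with control siRNA. The groups did not overlap, and the log2 ratio differed by -0.82 (exact two-sided permutation p = 0.1, the smallest possible). Without division by length the difference was also -0.82, but the ratios themselves depend on the exonic lengths. The table counts all isoforms of a gene as 1 row, so the long and short forms of c-FLIP cannot be told apart.

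Per length, in TPM (transcript abundance scaled to the same total in each library) from the table's exonic lengths, the order of the 10 levels differed between the groups. These lengths count all exonic bases of a gene (22529 for CFLAR, 7243 for CASP8), which may exceed those of the expressed mRNA. In mean CPM, CFLAR and CASP8 were at 119 and 113 after HNRNPD siRNA and 88.8 and 47.8 with control siRNA, so the low place of CFLAR depends on its length. After HNRNPD siRNA, XAF1 stood highest at 113 ± 50.7 TPM (SD, n = 3), followed by TNFRSF10A at 62.2 ± 6.54 and TNFRSF10B at 56.5 ± 5.46 TPM, whose libraries overlapped. With the antisense counts subtracted, XAF1 was at 31.7, 28.1 and 59.8 TPM in HNRNPD siRNA replicates 1 to 3, so that its place above the receptors depends on counts that cannot be assigned. CASP8 at 35.1 ± 2.40 TPM came next, then TNFSF10 at 19.6 ± 6.87 and FAS at 18.8 ± 2.44 TPM, which overlapped. CFLAR at 12.0 ± 1.73, XIAP at 9.86 ± 0.607 and TNFRSF10D at 8.67 ± 1.81 TPM overlapped from one to the next, and TNFRSF10C was lowest at 1.11 ± 0.241 TPM. With control siRNA, TNFRSF10A (48.1 ± 1.09 TPM) and TNFRSF10B (46.1 ± 0.557 TPM) led, and TNFRSF10D came after them at 17.9 ± 0.835 TPM. CASP8 stood at 14.7 ± 1.65 TPM, and XIAP, FAS and CFLAR lay between 8.74 and 9.29 TPM and overlapped. TNFRSF10C (1.18 ± 0.386 TPM), TNFSF10 (0.671 ± 0.0474 TPM) and XAF1 (0.106 ± 0.0352 TPM) made up the low end.

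The HNRNPD siRNA libraries differed among themselves most in the genes that rose most. The highest library stood at 2.31 times the lowest for XAF1 and 1.95 times for TNFSF10, against 1.36 times or less for the other 8 genes and 1.09 times for HNRNPD. In CPM, replicate 3 was highest of the HNRNPD siRNA libraries in 8 of the 10 genes, including TNFRSF10C and XIAP, which were not called. The summed level of 13 interferon-stimulated genes was 6290 CPM in HNRNPD siRNA replicate 1, 5084 CPM in replicate 2 and 7837 CPM in replicate 3, against 608, 605 and 565 CPM in the control libraries. XAF1 and TNFSF10 had the same order, replicate 3, 1, 2, both in CPM and in TPM. FAS, TNFRSF10A, CFLAR and XIAP, which was not called, had it in CPM only. In TPM, replicate 2 was above replicate 1 for each of them, and CFLAR was level between these replicates in CPM (111 in both). The shares of all genes tested with this order, or with replicate 3 highest, were not counted. All 13 interferon-stimulated genes were called higher (median log2 fold change 6.35). The part of interferon signalling in the levels of the 10 genes was not tested. Without HNRNPD siRNA replicate 3 the log2 fold change was 9.63 for XAF1 and 4.53 for TNFSF10.

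**Figure D4:**
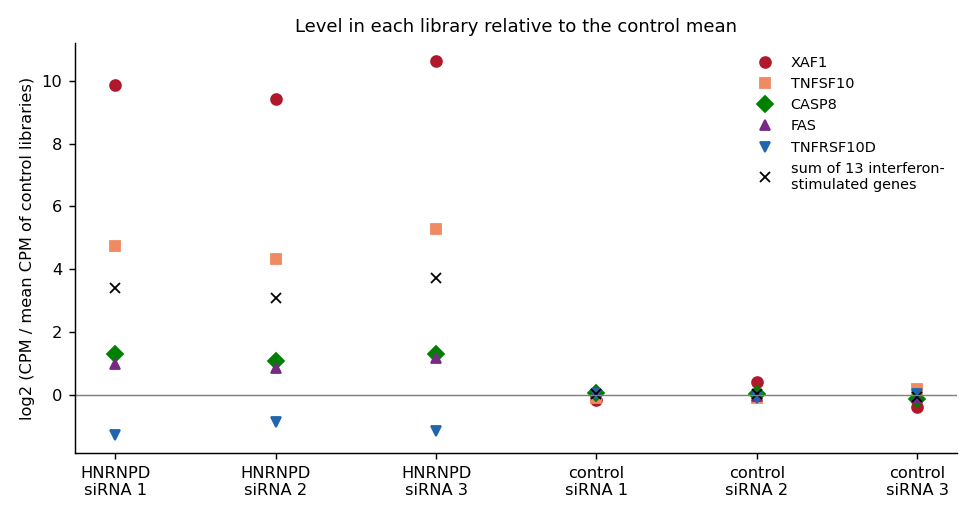
Log2 of the CPM of 5 members, and of the summed CPM of 13 interferon-stimulated genes, relative to the mean of the control libraries (vertical axis) in each of the 6 libraries (horizontal axis). In CPM, XAF1, TNFSF10, FAS and the interferon-stimulated sum share the order replicate 3, 1, 2 among the HNRNPD siRNA libraries. In TPM, FAS has replicate 2 above replicate 1 (17.8 and 17.0 TPM). TNFRSF10D lies below 0 in all 3 HNRNPD siRNA libraries.

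Genes with the most similar pattern were sought by the root mean square difference of log2 CPM over the 6 libraries, relative to the control mean, among 9628 protein-coding genes averaging 5 CPM or more. Nearest to TNFSF10 were NLRC5, a regulator of HLA class I genes (difference 0.17), the PD-L1 gene CD274 (0.17) and the DNA sensor gene IFI16 (0.19). XAF1 had no near neighbour, the closest being MX1 (0.59), OAS2 (0.95) and RSAD2 (1.00), all antiviral genes. For CASP8 the closest were AGRN, which encodes the matrix protein agrin (0.07), the zinc finger gene ZNF155 (0.08) and ATRIP, a partner of the checkpoint kinase ATR (0.08). With 2 groups of 3 libraries, likeness mostly means an equal rise.

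Since AUF1 binds AU-rich sequences, the 3′ ends of the mRNAs were searched for ATTTA and TATTTAT in 1 GENCODE 29 transcript per gene, with at least 50 bases of 3′ UTR. Such a transcript was found for 9 of the 10 genes, without CASP8. The decoy gene TNFRSF10D, which fell, had 12 ATTTA and 6 TATTTAT in 2282 bases, and FAS, which rose, had 7 and 2 in 1335 bases. Both lie near the 91st percentile of 18420 genes in ATTTA per kilobase, at 91.3 for TNFRSF10D and 91.2 for FAS. TNFRSF10B had 5 and 4, XIAP 20 and 1, CFLAR 23 and 2, and TNFSF10 2 and 1. TNFRSF10A (5), XAF1 (3) and TNFRSF10C (1) held ATTTA but no TATTTAT. The 3′ UTRs of CFLAR (12714 bases) and XIAP (6798 bases) are long. In ATTTA per kilobase they stood at percentiles 55.4 and 72.2, below TNFRSF10A at 84.1. In TATTTAT per kilobase, TNFRSF10D stood at percentile 97.5, TNFRSF10B at 94.6, FAS at 94.1 and TNFSF10 at 90.5. CFLAR was at 71.1 and XIAP at 71.0. Of all 18420 genes, 66.0% hold ATTTA and 29.6% hold TATTTAT. Genes with the heptamer thus included 1 that fell, 4 that rose and 1 not called. The sites of FAS, TNFSF10 and XIAP are shown with the heptamer in capitals, as examples from genes that did and did not change.
FAS, base 507 of the 1335-base 3′ UTR: tgagaagatcaTATTTATgtaaagtatat
FAS, base 1175 of the same 3′ UTR: ttaagaaataaTATTTATatttctgtaaa
TNFSF10, base 837 of 984: tgtagtgctcaTATTTATtgttgtttttg
XIAP, base 1846 of 6798: caaatttatttTATTTATttaattttctt

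Beyond the 10 genes, 15 other ligands and receptors of the family were examined. Of these 11 could be tested, and 2 were called higher and 5 lower, against 28.4% and 27.8% of all genes tested (median log2 fold change -0.28). EDA2R, the receptor of ectodysplasin A2, rose to 53.8, 49.0 and 52.1 CPM after HNRNPD siRNA, against 34.5, 34.6 and 34.9 CPM with control siRNA (edgeR adjusted p = 4.30e-07). The death receptor gene TNFRSF21 (DR6) fell by 0.76, the TWEAK receptor gene TNFRSF12A by 0.76 and the main TNF receptor gene TNFRSF1A by 0.49 on the log2 scale, with no overlap of the groups. The count of called rises was 1 without control replicate 1 or HNRNPD siRNA replicate 3, and that of called falls was 3 with at least 1 CPM required in 3 libraries. The median was -0.44 without control replicate 1, -0.19 without control replicate 2 and -0.14 with the 1 CPM minimum.

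In the receptor signalling complex and its regulators, 21 of 22 genes were tested, of which 9 were called higher and 3 lower, beside 28.4% and 27.8% of all genes (median log2 fold change 0.18). RBCK1 (HOIL-1), a subunit of the linear ubiquitin ligase LUBAC, was at 170, 156 and 186 CPM after HNRNPD siRNA and 58.6, 61.9 and 58.1 CPM with control siRNA (log2 fold change 1.52, SE 0.07, edgeR adjusted p = 2.17e-12). RNF31 (HOIP), the catalytic subunit of LUBAC, rose by 1.11, and 39.1% of its exonic bases are shared with other rows. The remaining subunit gene, SHARPIN, was not called (log2 fold change -0.09). OTULIN, the enzyme that removes linear ubiquitin, fell by 0.68, and TRAF1, an adaptor at TNF receptors, rose by 1.24. The adaptor gene FADD was called higher (0.52, edgeR adjusted p = 0.000492), but 54.9% of its exonic bases are shared with another row. PEA15, a death effector domain protein, fell to 16.7, 16.8 and 23.8 CPM, against 38.7, 39.7 and 40.6 CPM with control siRNA. CASP10, FADD, PEA15 and SHARPIN were picked after their values were seen.

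Of 10 genes of IAP proteins and their antagonists 9 were tested, with 4 called higher and 3 lower, where 28.4% and 27.8% of all genes were (median log2 fold change 0.16). DIABLO, the mitochondrial antagonist of IAP proteins, was at 47.5, 49.2 and 49.8 CPM after HNRNPD siRNA and 82.5, 72.6 and 78.7 CPM with control siRNA (edgeR adjusted p = 5.34e-08), and 22% of its exonic bases are shared. BIRC7 (livin) fell by 2.19, with means of 0.439 CPM after HNRNPD siRNA and 2.01 CPM with control siRNA. SEPT4, whose isoform ARTS opposes XIAP, fell by 1.05, and NAIP rose by 0.63. The list's median was 0.04 without HNRNPD siRNA replicate 1.

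Downstream, PARP1, a caspase substrate that takes part in DNA repair, was at 148, 148 and 148 CPM after HNRNPD siRNA, against 273, 261 and 256 CPM with control siRNA. It fell by 0.83 on the log2 scale (SE 0.06, edgeR adjusted p = 5.77e-10), with no overlap of the groups. BID, which caspase-8 cleaves to link the receptors with mitochondria, fell by 0.52, and AIFM1, a mitochondrial flavoprotein, fell by 0.40 on the log2 scale. Not all downstream genes fell. CASP9 was called higher by 0.79, BAX by 0.36 and CYCS by 0.24 on the log2 scale. CASP9, BAX and CYCS were picked after their values were seen.

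Of 6 further caspase genes 3 passed the filter. CASP1, the inflammasome caspase, was at 5.28, 5.23 and 10.9 CPM after HNRNPD siRNA and 0.704, 0.607 and 0.572 CPM with control siRNA (log2 fold change 3.50, SE 0.37, edgeR adjusted p = 7.44e-05). CASP4, which senses bacterial lipopolysaccharide, rose by 1.47, with its highest level in replicate 3 as for CASP1. CASP2 fell by 0.50. Their median log2 fold change was 1.47.

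**Figure D5:**
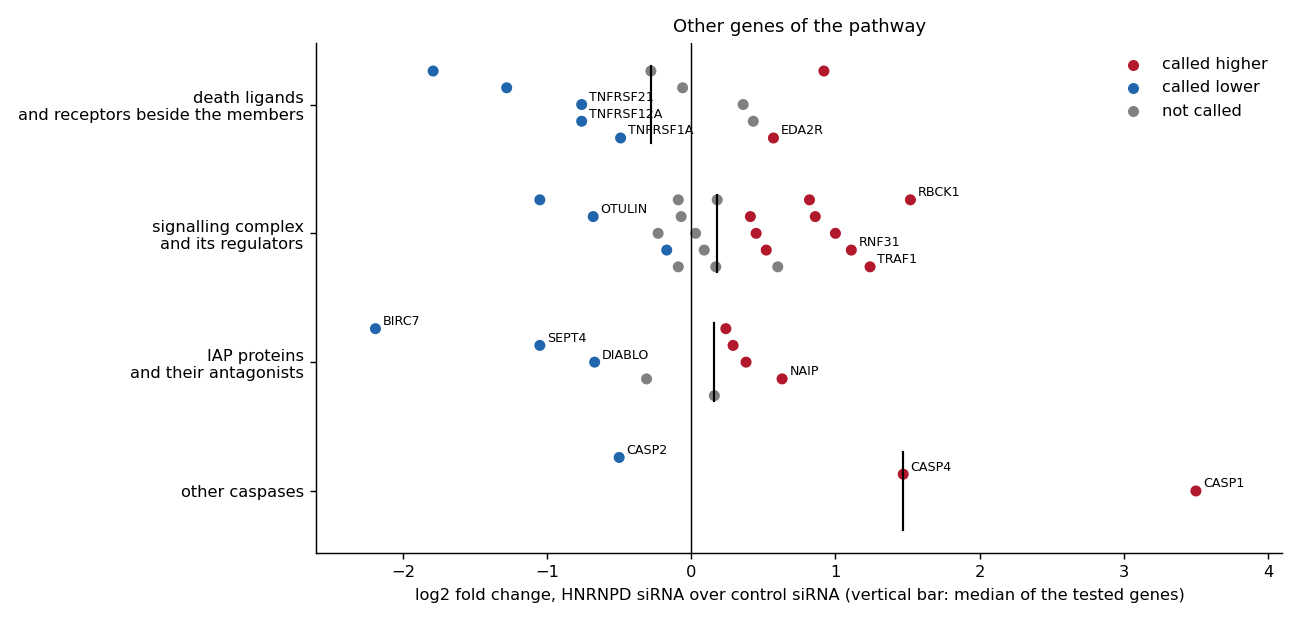
Log2 fold changes of HNRNPD siRNA over control siRNA (horizontal axis) for the tested genes of 4 pathway lists (rows), coloured by call, with the median of each list as a vertical bar and the 4 smallest p-values per list named. CASP1 (3.50) lies farthest to the right, and called rises and falls occur together in each list.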

How the data were processed

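RNA of 6 A549 libraries was extracted with Trizol and prepared with the Illumina TruSeq RNA kit, per the labels. The deposited values are whole-number read counts per gene, with the exonic length of each gene. Per the submitters' processing notes, Bowtie 0.12.2 is named, and GRCh38 as well as mm8 are listed as builds, without roles. Which program counted the reads, with what annotation and strandedness, is not stated in the labels or the file. Totals were 37151094 to 43005090 counts per library. The intervals given include variation between libraries as well as counting error.

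HNRNPD siRNA was set against control siRNA by edgeR 4.0.16 under R 4.3.3 (robust quasi-likelihood test, TMM, filterByExpr, group as the only term, Benjamini-Hochberg adjustment over 20465 genes). CPM use TMM-scaled totals. Standard errors and intervals come from the F statistic. Ratios between genes were compared by exact permutation over libraries. The fit was tested on simulated data. Positions are those of the table (GRCh38), gene types and 3′ UTRs come from GENCODE 29, and promoters from RefSeq. SEPT4 had been turned into a date in the table and was found by its position.

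Named were the 10 genes, HNRNPD, the 4 genes of each list with the smallest p and the 3 nearest patterns of TNFSF10, XAF1 and CASP8. The members and lists were chosen with earlier results of these data known. Alternatives were DESeq2 1.42.0, limma-voom (limma 3.58.1), DESeq2 size factors, other filters, no mitochondrial genes, a replicate block, and each library left out. Counts divided by 2 and antisense counts subtracted were added after seeing the data. Some results of downstream genes are not reported here.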

Additional observations from a re-analysis of the deposited data

How the results depend on the processing

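Under the 14 alternatives to the fit, 7 of the 10 genes were called higher and 1 lower each time, and 138 of 140 fold changes of the 10 genes kept their direction and their side of the threshold. The exceptions were genes that were not called in any fit. The log2 fold change of TNFRSF10C was 0.09 without control replicate 1, with -0.37 to 0.09 as the range when each library was left out, and that of XIAP was -0.02 without control replicate 2, with -0.02 to 0.11 as its range. The cause was not tested. The log2 fold change of XAF1 ran from 9.63 to 10.29 and that of TNFSF10 from 4.53 to 5.04. With antisense counts subtracted from XAF1, the log2 ratio of XIAP to XAF1 differed by -10.46. Same-numbered libraries did not deviate together (correlations 0.0257, 0.0218 and 0.0139 for replicates 1 to 3), so the numbers were not taken to pair them. All these correlations were small. HNRNPD siRNA replicates 1 and 2 correlated best with the control of the same number, and replicate 3 with control replicate 2 (0.0161). With the replicate block 5792 genes were called higher and 5737 lower, and none of the calls of the 10 genes changed. Low counts limit TNFRSF10C in all libraries and XAF1 in the control libraries.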
